A study of Mus musculus with 7 samples.

Results

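Regions called as Fos peaks in the mouse hippocampus both after saline and after kainic acid are described here. A called peak does not by itself show Fos binding. They were found by merging the peaks of 6 chromatin immunoprecipitation sequencing (ChIP-seq) lists that overlapped by at least 1 bp. A merged region on chromosomes 1 to 19 was kept if it held a peak of at least 1 saline list and at least 1 kainic acid list. This gave 1052 regions of 68249 merged autosomal regions, or 1.54%. A summit within 1 kb of either end of a protein-coding gene placed 571 of them at gene ends, and 481 lay elsewhere. The regions were chosen by the peak calls of both groups, so their presence in the lists is a description and not a finding.

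All mice were wild type C57BL/6J animals of 2 months, and chromatin came from the dissected hippocampus. The saline group received PBS, and the kainic acid group received 2 intraperitoneal injections of 10 mg/kg kainic acid 30 min apart. Kainic acid activates kainate-type glutamate receptors and drives neurons into seizure. Tissue of mice that reached seizure level 4 was taken 1 hour after injection began. Each group has 3 libraries made with an antibody against Fos, and the 1 input library was not used here. The number of mice per library is not in the labels, nor is it stated that replicates are separate mice, so any p-value measures only the spread between these libraries.

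Fos is a subunit of the transcription factor AP-1. It pairs with a Jun protein, and the dimer binds a short DNA motif called the AP-1 or TPA-response element. Neurons make little Fos at rest and much of it after strong activity, and many of its sites in active neurons lie in enhancers away from gene starts. Promoters of widely expressed genes often sit in CpG islands, which are rich in G and C and hold GC boxes, the motif of the Sp and Klf factors.

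The sequences that carry the main contrast are the stretches just before gene starts, shown for 6 shared regions whose kainic acid summit lay in the RefSeq promoter window of that gene. Each is the 250 bases before the annotated start, 5′ to 3′ on the gene's strand, from RefSeq on GRCm38.p6. Capitals mark matches to the AP-1 motif TGANTCA or to the GC box GGGCGG on either strand. Klhl21, an adaptor of a ubiquitin ligase, F3, which encodes tissue factor, and Ist1, which acts in membrane remodelling, had the best kainic acid ranks among regions in all 3 kainic acid lists with an AP-1 match in this stretch. Rpp25l and Ubxn4 had the best ranks among those with no match in the whole window, and Jun encodes the partner of Fos.
Klhl21, chr4:152008641-152008890, plus strand: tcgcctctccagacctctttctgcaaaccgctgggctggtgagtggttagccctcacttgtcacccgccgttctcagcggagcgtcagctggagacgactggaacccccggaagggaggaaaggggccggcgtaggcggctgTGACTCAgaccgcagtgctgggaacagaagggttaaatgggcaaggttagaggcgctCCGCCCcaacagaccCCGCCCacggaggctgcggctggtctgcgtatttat
F3, chr3:121723287-121723536, plus strand: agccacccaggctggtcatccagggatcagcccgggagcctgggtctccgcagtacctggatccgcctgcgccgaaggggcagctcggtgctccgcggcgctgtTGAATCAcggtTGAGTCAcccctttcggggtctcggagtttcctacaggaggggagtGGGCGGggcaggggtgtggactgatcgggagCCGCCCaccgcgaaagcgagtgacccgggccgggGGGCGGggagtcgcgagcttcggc
Ist1, chr8:109693295-109693544, minus strand: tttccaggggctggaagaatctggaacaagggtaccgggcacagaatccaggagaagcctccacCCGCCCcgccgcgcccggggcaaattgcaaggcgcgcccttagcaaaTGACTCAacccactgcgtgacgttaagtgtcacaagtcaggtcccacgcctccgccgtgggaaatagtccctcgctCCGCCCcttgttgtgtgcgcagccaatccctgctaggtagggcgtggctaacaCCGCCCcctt
Rpp25l, chr4:41713518-41713767, minus strand: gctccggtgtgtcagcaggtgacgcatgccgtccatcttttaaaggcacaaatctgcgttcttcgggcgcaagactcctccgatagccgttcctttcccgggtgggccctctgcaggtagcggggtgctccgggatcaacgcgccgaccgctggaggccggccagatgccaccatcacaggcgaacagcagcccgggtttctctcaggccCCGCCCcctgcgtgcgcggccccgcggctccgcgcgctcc
Ubxn4, chr1:128243887-128244136, plus strand: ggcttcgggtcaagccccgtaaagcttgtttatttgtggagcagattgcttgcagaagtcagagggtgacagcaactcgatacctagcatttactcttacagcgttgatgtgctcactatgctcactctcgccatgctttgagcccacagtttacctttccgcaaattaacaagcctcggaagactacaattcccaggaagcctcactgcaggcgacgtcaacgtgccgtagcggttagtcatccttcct
Jun, chr4:95052223-95052472, minus strand: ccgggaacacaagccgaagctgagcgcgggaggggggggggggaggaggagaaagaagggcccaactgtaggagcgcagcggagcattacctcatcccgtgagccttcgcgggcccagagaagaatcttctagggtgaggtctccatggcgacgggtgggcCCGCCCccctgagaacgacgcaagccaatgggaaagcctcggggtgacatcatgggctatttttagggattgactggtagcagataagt

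Klhl21 and Ist1 hold the match TGACTCA, and F3 holds TGAATCA followed by TGAGTCA. The centre of the match lay 105 bases before the start in Klhl21 and 136 before it in Ist1. In Ist1 the saline replicate 2 summit lay 139 bases before the start and the kainic acid summit 141. In Klhl21 they lay 152 and 122 bases before it. The Klhl21 region had a fold of 4.31 in saline replicate 2 and 5.11, 14.4 and 7.49 in kainic acid replicates 1, 2 and 3. Ist1 had a fold of 3.91 in saline replicate 2 and 4.38, 12.7 and 5.24 with kainic acid. The fold is the authors' enrichment of a peak over its local background in 1 library and is not scaled between libraries. Ubxn4, which acts in protein degradation at the endoplasmic reticulum, shows neither motif in its stretch, and its folds were 4.21 with saline and 4.05, 11.2 and 4.68 with kainic acid. Rpp25l, related to a subunit of ribonuclease P, had 4.74 with saline and 4.40, 14.6 and 6.04 with kainic acid, and F3 had 3.63 and then 4.48, 13.2 and 7.96. In these 5 regions, with or without an AP-1 match, kainic acid replicate 2 had the highest fold.

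The saline side rests on 1 library. Saline replicate 2 supplied a peak in 1050 of the 1052 regions, saline replicate 1 in 4 and saline replicate 3 in 0. Their lists held 3258, 4 and 0 autosomal peaks. With kainic acid the lists held 14890, 62620 and 29425 autosomal peaks, and 260, 1031 and 553 of the shared regions had a peak in replicates 1, 2 and 3. Without saline replicate 2 the number of shared regions was 4, and without kainic acid replicate 2 it was 489. A region missing from a list was not called there, which does not show that it was unbound. The lists carry no read totals, so depth is unknown and intervals cover the counting of regions only. On the scale log10(autosomal peaks + 1), kainic acid lists averaged 4.48 ± 0.312 (SD, n = 3) and saline lists 1.40 ± 1.86 (SD, n = 3), with p = 0.1 by a two-sided exact permutation test, which cannot go lower at this size. A peak list holds no expression values, so marker genes were read by position only. Kainic acid only regions lay at an end of 8 of 14 neuron marker genes, 4 of 10 astrocyte, 2 of 10 oligodendrocyte lineage, 2 of 10 microglia, 1 of 9 endothelial and 2 of 20 liver genes, against 26.4% of all protein-coding genes. They also lay at an end of 24 of 38 proteasome, 39 of 78 ribosomal protein and 17 of 30 splicing and hnRNP genes. The counts were 29 of 77 for respiratory chain, 113 of 386 for Zfp zinc finger and 4 of 13 for histone genes. The marker counts therefore do not identify the tissue.

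The first comparison asks where shared regions lie relative to genes. Of the shared regions, 54.3% were at a gene end (95% Clopper-Pearson interval 51.2 to 57.3), against 9.34% (9.12 to 9.57) of the 65017 regions with kainic acid peaks only and 60.7% (58.6 to 62.7) of the 2180 regions with saline peaks only. Over all merged autosomal regions the share was 11.7%. Seen the other way, 7.17% of all gene-end regions were shared and 0.798% of the others. The same contrast held within each kainic acid list. In replicate 1, 34.6% of the peaks in shared regions and 5.73% of its other autosomal peaks were at gene ends. The shares were 54.4% and 9.63% in replicate 2 and 43.2% and 6.97% in replicate 3. The difference was 36.6 ± 7.98 percentage points (SD, n = 3), higher for shared peaks in 3 of 3 lists, with p = 0.25 in a two-sided exact sign-flip permutation test, the smallest that 3 lists allow. In saline replicate 2 the shared peaks were at gene ends in 55.9% and the peaks outside shared regions in 60.7%. Saline replicate 2 supplied 1050 of the 1052 regions. The 3 kainic acid lists were thus split by the same saline peaks, and their differences are not independent of each other. Since most peaks of that saline list were at gene ends, the sharing rule itself favoured this direction.

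Gene-end regions and the others also differed in how often kainic acid libraries called them again. The gene-end share was 64.7% (60.4 to 68.8) among the 515 shared regions in 1 kainic acid list, 51.8% (45.8 to 57.7) among the 282 in 2 lists and 36.1% (30.2 to 42.3) among the 255 in all 3. Kainic acid only regions followed the same order at 10.9%, 7.86% and 6.07%. Put as shares of each part, 16.1% (13.2 to 19.4) of gene-end shared regions and 33.9% (29.7 to 38.3) of the other shared regions were in all 3 kainic acid lists. These 2 intervals do not overlap, but they cover the counting of regions only, and calls in kainic acid lists were part of the rule. Kainic acid only regions had the same order, with 11.6% (10.8 to 12.4) at gene ends and 18.5% (18.2 to 18.8) elsewhere. Kainic acid replicate 2 was the only kainic acid list with a peak in 326 of the gene-end regions and 168 of the others, so single-list regions are mostly calls of the longest list.

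**Figure D1:**
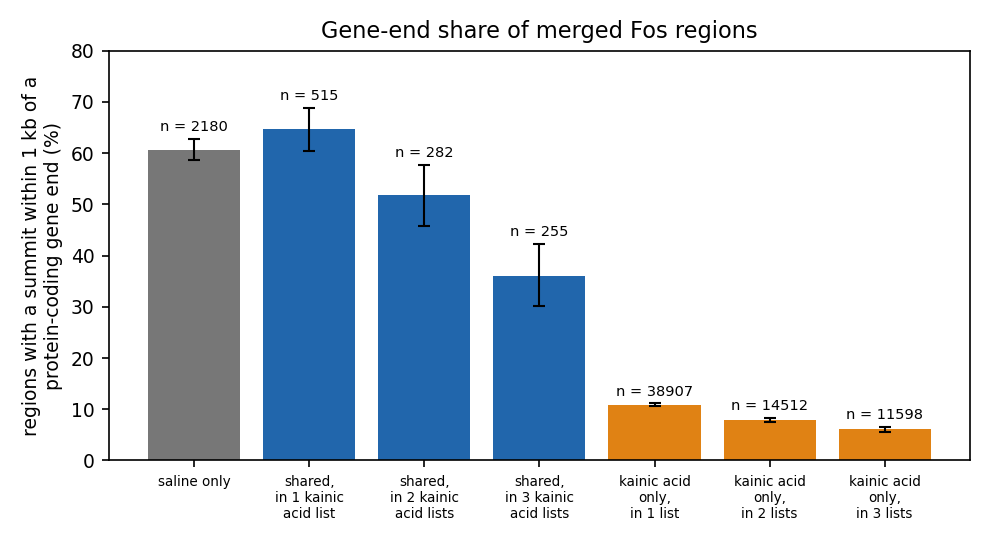
Share of merged autosomal regions with a summit within 1 kb of a protein-coding gene end, by the groups and the number of kainic acid lists with a peak. Bars are percentages with 95% Clopper-Pearson intervals, and n is the number of regions. Shared regions go from 64.7% in 1 kainic acid list to 36.1% in 3, all above the kainic acid only regions and, in 1 list, near the saline only regions at 60.7%.

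At gene ends, shared regions were at starts rather than 3′ ends. The strand of the nearest gene was known from the RefSeq promoter table for 467 of the 571 regions, and in 451 of these, 96.6% (94.5 to 98.0), the nearest end was the gene start. For kainic acid only regions it was 80.6% (79.5 to 81.7) and for saline only regions 95.6% (94.2 to 96.8). Among the 571 regions, 80, or 14.0% (11.3 to 17.1), had ends of 2 or more genes within 1 kb, against 12.7% (11.8 to 13.5) for kainic acid only gene-end regions. The 571 regions had 564 different nearest genes, of which 7 had 2 regions each.

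Summits of the same shared region took different places around the start in the 2 groups. Of the 451 regions at starts, the saline summit lay within 100 bp of the start in 134, or 29.7%, and the kainic acid summit in 57, or 12.6%. By library the share was 29.7% (25.5 to 34.2) in saline replicate 2, against 9.46% (3.89 to 18.5), 13.0% (10.0 to 16.5) and 9.52% (5.74 to 14.6) in kainic acid replicates 1, 2 and 3. Each kainic acid library was below saline replicate 2, and none of their intervals reached its interval. Between 100 and 300 bp inside the gene lay 21.6%, 29.6% and 22.8% of the summits of kainic acid replicates 1, 2 and 3 and 25.1% of those of saline replicate 2, so the kainic acid libraries fell on both sides of it. Saline only regions had 29.6% of summits within 100 bp of the start, and kainic acid only regions had 7.23%, 8.78% and 5.12% in replicates 1, 2 and 3. Measured from the start in the RefSeq promoter table in place of the edge of the gene's span, the shares were 35.3% in saline replicate 2 and 10.8%, 14.1% and 12.7% in kainic acid replicates 1, 2 and 3. With 1 saline library, a trait of that library and of saline treatment cannot be told apart.

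**Figure D2:**
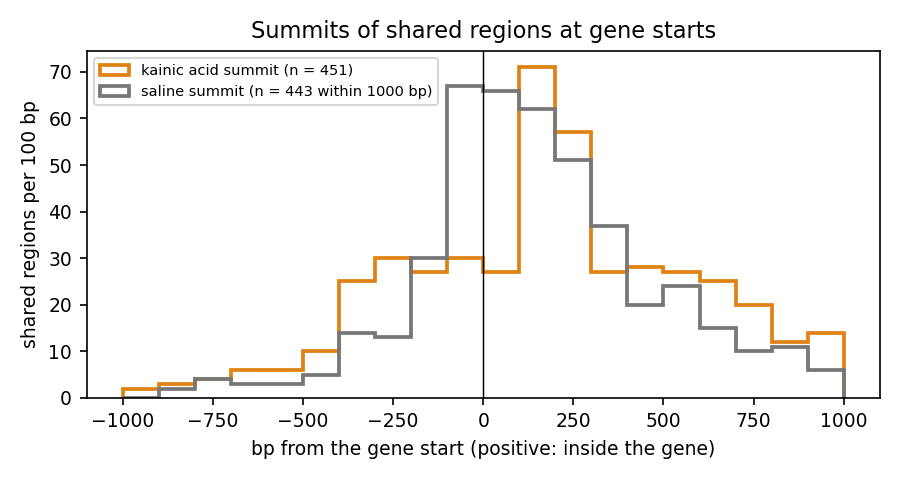
Positions of the kainic acid and saline summits of the 451 shared regions at gene starts, in 100 bp bins along the gene's direction. Each region counts once per line, and 443 saline summits fall within the plotted range. Saline summits are most frequent within 100 bp of the start (134 regions), where the kainic acid line is low (57 regions) before its highest bin just inside the gene.

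Away from gene ends, 73.6% (69.4 to 77.5) of the 481 regions lay inside a protein-coding gene. The share was 65.3% (64.9 to 65.7) for kainic acid only and 80.4% (77.6 to 83.0) for saline only regions away from ends. The RefSeq gene table used does not tell exons from introns. The 481 shared regions lay closer to gene ends than kainic acid only regions did. Their median distance to the nearest gene end was 8.23 kb, against 32.6 kb for kainic acid only and 6.46 kb for saline only regions. Of the 481, 25.2% were within 2.5 kb of an end and 6.24% beyond 100 kb. The shares were 7.37% and 23.4% for kainic acid only and 29.9% and 4.20% for saline only regions. Several genes were the nearest to more than 1 of the 481 regions. Gins2, which encodes a subunit of the replication complex GINS, had 6. Hes1, a repressor downstream of Notch, and Nrxn2, a presynaptic adhesion protein, had 3 each. Cmip, Cstad and Med13l also had 3. These genes were picked once the counts per gene were known.

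The second comparison asks how high shared regions rank within each list, since folds compare only within a library. The percentile rank runs from 0 for the highest fold to 100. In kainic acid replicates 1, 2 and 3 the median rank was 49.6, 47.7 and 47.1 for gene-end shared regions and 27.4, 25.9 and 19.7 for the others. By fold, gene-end regions sat near the middle of each list and the others toward its top. The difference in median rank was 23.8 ± 3.16 points (SD, n = 3), in the same direction in 3 of 3 lists (two-sided exact sign-flip permutation p = 0.25, the smallest possible). The 3 lists rank many of the same regions, each with 1 gene-end label, so their differences are not independent of each other. Among kainic acid only regions the difference in median rank by fold was 10.8 ± 2.68 points (SD, n = 3). Of the other shared regions, 33.1%, 33.8% and 36.8% were in the top 10% of the kainic acid lists, against 11.7%, 13.5% and 12.3% of the gene-end shared regions. In saline replicate 2 the gap was smaller, with medians of 52.7 and 39.7. The ranking by −log10 q gave another picture in part. Gene-end shared regions then had medians of 34.1, 39.0 and 32.1 in the kainic acid lists and the others 22.9, 22.7 and 20.1, a mean difference of 13.1 points. In saline replicate 2 the medians by −log10 q were 44.7 and 45.3, so the gap seen by fold was absent there. Kainic acid only regions had 47.3, 51.4 and 48.4 at gene ends and 48.6, 49.5 and 49.6 elsewhere, with no single direction.

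**Figure D3:**
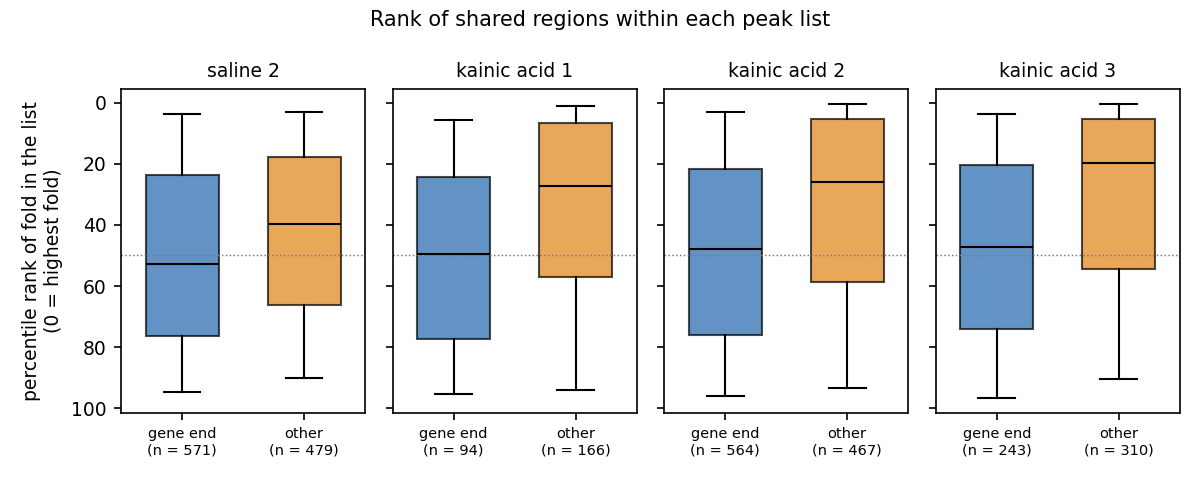
Percentile rank of the fold of shared regions within saline replicate 2 and each kainic acid list, for gene-end regions and the others. Boxes are quartiles with the median, whiskers run from the 5th to the 95th percentile, n is the number of regions with a peak in that list, and the dotted line is the middle of the list. In the kainic acid lists the medians of the others are 27.4, 25.9 and 19.7, above those of gene-end regions at 49.6, 47.7 and 47.1.

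In folds, gene-end shared regions had medians of 4.39, 4.51 and 4.09 in kainic acid replicates 1, 2 and 3 and 4.10 in saline replicate 2. The others had 5.21, 5.76 and 5.42 with kainic acid and 4.35 in saline replicate 2. The median log2 ratio of kainic acid fold to saline replicate 2 fold was 0.14, 0.17 and 0.02 at gene ends and 0.35, 0.42 and 0.32 elsewhere. The ratio is not scaled between libraries, and all 3 ratios share the saline replicate 2 fold, so they are not independent of each other. The kainic acid fold was below the saline fold in 42.6%, 40.4% and 48.6% of gene-end regions and in 29.9%, 28.2% and 36.0% of the others. Widths differed as well. Gene-end regions had a median merged width of 607 bp and the others 774 bp, but a merged width grows with the number of lists joined. Within single lists the median peak widths in kainic acid replicates 1, 2 and 3 were 406, 472 and 520 bp at gene ends. Elsewhere they were 473, 608 and 665 bp. In saline replicate 2 the medians were 282 bp at gene ends and 260 bp elsewhere.

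The saline and kainic acid summits of a region were seldom at the same base. The median distance between the saline replicate 2 summit and the summit in kainic acid lists 1, 2 and 3 was 223, 174.5 and 174 bp at gene ends and 133.5, 165 and 163 bp elsewhere. They lay within 50 bp of each other in 14.9%, 14.0% and 16.0% of gene-end regions and in 25.0%, 18.3% and 19.5% of the others. The share within 50 bp was lower at gene ends in each of the 3 kainic acid libraries.

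Only 4 shared regions had a peak in saline replicate 1, and all 4 lay away from gene ends and in all 3 kainic acid lists. The region inside Atxn1, which encodes the polyglutamine protein ataxin 1 (chromosome 13, 45623232 to 45624723), had a fold of 12.7 in saline replicate 1, no peak in saline replicates 2 and 3, and 56.3, 82.6 and 54.2 in the kainic acid lists in order. Inside Nell2, a secreted neuronal glycoprotein gene (chromosome 15, 95275949 to 95277575), the region had 11.7 and 4.18 in saline replicates 1 and 2 and 54.5, 82.6 and 54.4 with kainic acid. These were the highest folds of the kainic acid lists, yet in saline replicate 2 the Nell2 region ranked at percentile 49.6 and the Atxn1 region was not called. Beside Ankrd12, an ankyrin repeat gene (chromosome 17, 65960733 to 65962691), the fold was 13.6 in saline replicate 1, with no peak in saline replicates 2 and 3, and 44.1, 63.5 and 44.7 with kainic acid. Near Arhgap26, which encodes a GTPase-activating protein, it was 6.79 and 5.23 in saline replicates 1 and 2 and 12.7, 29.7 and 14.8 with kainic acid. In each of the 4 every kainic acid fold was above every saline fold.

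These 4 were among the 10 regions away from gene ends with the best mean kainic acid rank, and the other 6 were called in saline replicate 2 but not in saline replicates 1 and 3. Inside Rimbp2, a presynaptic active zone protein gene, the fold was 6.04 in saline replicate 2 and 14.1, 28.2 and 20.9 in kainic acid replicates 1, 2 and 3. Inside Baiap2, an organiser of actin in dendritic spines, it was 6.22 and then 12.5, 39.0 and 18.97. Both regions stood near the top of the saline list too, at percentiles 2.01 and 1.39. A region at Npas4, an activity-induced transcription factor gene (chromosome 19, 4992613 to 4994024), had 6.45 with saline and 12.7, 24.2 and 13.9 with kainic acid. Its summit lay within the 19.1 kb RefSeq span of the gene, which includes predicted transcripts, and 3.19 kb from the start in the promoter table. It ranked at percentile 1.01 in saline replicate 2 and at 0.516, 0.127 and 0.317 in the kainic acid lists. A region whose nearest gene was Rasgrp1, an activator of Ras, lay outside it with its summit 89.4 kb from that gene's nearest end, and its folds were 5.23 with saline and 11.2, 31.0 and 13.3 with kainic acid. The remaining 2 of the 10 had Setd3, an actin histidine methyltransferase, and Ppl, which encodes periplakin, as nearest genes, with saline folds of 4.96 and 4.58.

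At gene ends the best kainic acid rank belonged to the start of Sertad1, a transcriptional coregulator gene (chromosome 7, 27486867 to 27487851). Its fold was 5.94 in saline replicate 2 and 9.83, 24.1 and 14.3 in kainic acid replicates 1, 2 and 3. Next was an end of Trib1, a pseudokinase gene induced by many stimuli (chromosome 15, 59648231 to 59649095), with 4.88 and then 8.43, 24.7 and 13.1. The Sfxn3 region, at the 3′ end of a mitochondrial serine transporter gene, had 4.19 and then 8.75, 16.5 and 12.3. Zkscan1, a zinc finger gene, had 4.54 and then 8.85, 15.3 and 10.2 at its start. High kainic acid folds were fixed here by the choice of regions. The region at the start of Srsf2, a splicing factor gene (chromosome 11, 116853123 to 116854321), lay with its summit inside the neighbouring gene Mfsd11 and had 4.71 with saline and 6.88, 18.5 and 10.5 with kainic acid. Trim9, a neuronal ubiquitin ligase gene, had 4.80 and then 7.69, 19.1 and 10.3, and Nt5dc3 had 6.25 and then 7.82, 18.7 and 11.1. The last 3 of the 10 were Dusp14, a phosphatase gene, Socs5, a suppressor of cytokine signalling, and Pim1, a kinase gene, with saline folds of 3.16, 4.20 and 5.03.

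**Figure D4:**
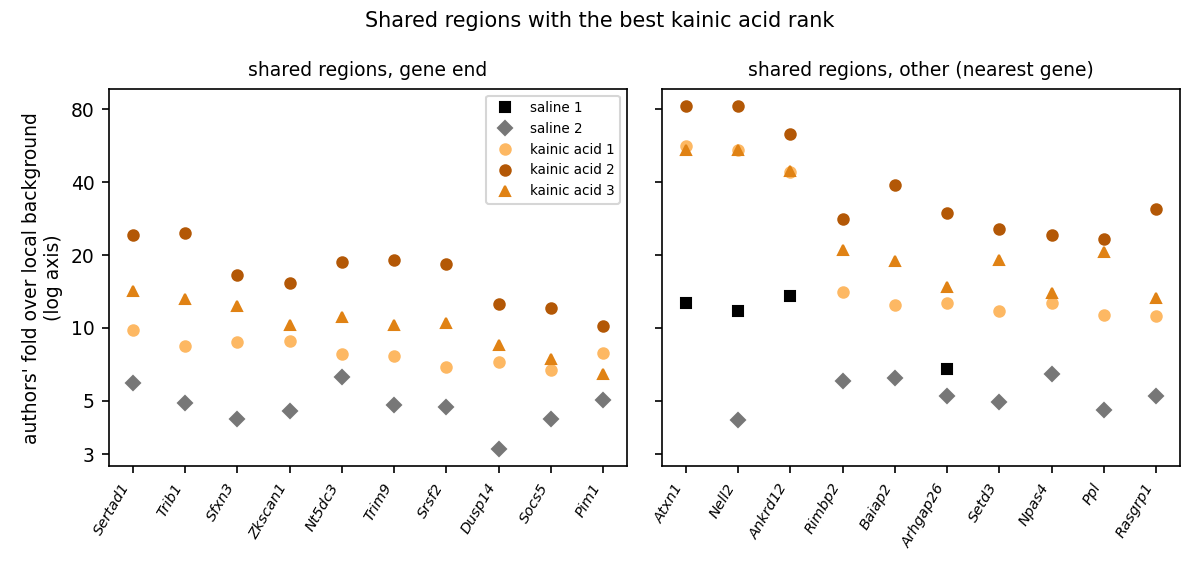
The authors' fold over local background, on a log axis, in each library with a peak for the 10 gene-end and the 10 other shared regions of best mean kainic acid rank. Each point is 1 library, and a missing point means that no peak was called. In the gene-end panel the folds go up to 24.7 (Trib1), and in the other panel up to 82.6 (Nell2), with kainic acid replicate 2 highest in all 20 regions.

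The 5 gene-end and 5 other regions with the highest saline replicate 2 fold varied in kainic acid rank. In kainic acid replicate 2 they stood at percentiles 2.68 to 84.5 at gene ends and 0.157 to 32.8 elsewhere. High saline folds were fixed here by the choice of regions. At the start of Slc9a5, a sodium/proton exchanger gene, the fold was 7.39 with saline and 6.16, 12.2 and 6.59 in kainic acid replicates 1, 2 and 3, so saline was above 2 of the 3 kainic acid libraries. At the start of Lix1l it was 7.21 with saline, with no peak in kainic acid replicate 1 and 5.43 and 3.92 in replicates 2 and 3. Actn1, which encodes an actin crosslinker, had 7.08 with saline and 3.49 in kainic acid replicate 2 alone. Klf16, a Sp/Klf-family transcription factor gene, had 7.003 and 5.43, and Rcan3, a calcineurin regulator gene, had 6.77 and 3.38, each also in kainic acid replicate 2 alone. Away from gene ends the pattern was mixed. A region whose nearest gene was Id2, an inhibitor of helix-loop-helix factors, lay outside it with its summit 93.4 kb from the nearest end. Its fold was 7.05 with saline and 8.67, 23.1 and 11.1 with kainic acid. In the region 7.47 kb outside Fyn, a Src-family kinase gene, the fold was 6.70 and then 8.87, 21.9 and 13.4. The region inside Cmip had 6.71 with saline and 3.65, 16.2 and 11.9 with kainic acid. The region 12.3 kb outside Armc12 and the one inside Nktr had 7.15 and 6.84 with saline and at most 5.22 and 5.44 with kainic acid.

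Gene lists were read against all 20661 protein-coding genes of chromosomes 1 to 19. Of these genes, 3.11% had a shared summit within 1 kb of an end and 6.36% had one within the gene or 10 kb of it. Of 25 activity-regulated transcription factor genes, 4 (16%) had a shared region at an end, namely Jun, Junb, Fosl1 and Ier2, and 11 (44%) had one within 10 kb. Kainic acid only regions lay at an end of 19 of these 25 genes, against 26.4% of all protein-coding genes, so a raised count is not particular to shared regions. The Jun and Junb proteins are partners of Fos, and Fosl1 encodes a Fos relative. At the Jun start the fold was 3.24 in saline replicate 2 and 4.34 in kainic acid replicate 2, with no peak in the other 2 kainic acid lists. At the 3′ end of Junb (chromosome 8, 84976837 to 84978195) it was 5.37 with saline and 5.42, 4.85 and 5.62 with kainic acid, a range of 4.85 to 5.62 over the 4 libraries. A second Junb region before the gene (chromosome 8, 84985101 to 84986548) had 4.05 with saline and 9.20, 21.3 and 12.1 with kainic acid. Ier2, an immediate early gene, had 4.23 with saline and 6.19 and 6.01 in kainic acid replicates 2 and 3. At Fosl1 the fold was 3.12 and then 7.20 and 4.20 in the same libraries.

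Of 25 activity-regulated effector genes, 6 (24%) had a shared region at an end, and 8 (32%) had one within 10 kb. The 6 were Arc, Rgs2, Vgf, Sik1, Pim1 and Trib1. Kainic acid only regions lay at an end of 21 of the 25. Arc, a synaptic plasticity gene whose mRNA moves to dendrites, had 4.96 with saline and 3.63 in kainic acid replicate 2 alone. Vgf, a secreted neuropeptide precursor gene, had 4.04 with saline and 9.28 and 4.62 in kainic acid replicates 2 and 3. Sik1, a salt-inducible kinase gene, had 4.76 and then 7.57 and 4.97, and Rgs2, a G protein regulator gene, had 4.20 and then 4.85 and 3.78. Of the 10 genes in these 2 lists, only Junb, Pim1 and Trib1 had a gene-end region called in all 3 kainic acid lists.

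Of 20 synaptic genes, 3 (15%) had a shared region at an end, namely Gria1, Vamp2 and Camk2a, and 7 (35%) had one within 10 kb, including Shank1, a postsynaptic scaffold gene, with 4.76 with saline and 11.2, 16.7 and 10.3 with kainic acid. Of 16 chaperone genes, 3 (18.8%) had one at an end, namely Hsp90ab1, Dnajb5 and Hspa9, and of 12 clock genes 1 (8.33%) had one, Per1. Kainic acid only regions lay at an end of 11 of the 20 synaptic, 11 of the 16 chaperone and 7 of the 12 clock genes. Per1, a light- and activity-inducible clock gene, had 4 regions within 10 kb, and their kainic acid replicate 2 folds ran from 3.85 to 16.7. Vamp2 is a neighbour, and 3 of these 4 regions are also within 10 kb of it, including the one at its end. Among genes of basic cell functions the counts were 3 of 78 ribosomal protein genes (3.85%), 2 of 77 respiratory chain genes (2.60%), 2 of 30 splicing and hnRNP genes (6.67%), 0 of 38 proteasome genes, 0 of 13 histone genes and 17 of 386 Zfp zinc finger genes (4.40%). Among markers they were 0 of 14 neuron, 1 of 10 astrocyte (Aldoc), 0 of 10 oligodendrocyte lineage and 0 of 9 endothelial genes, and 0 of 20 liver genes. No test was made on these lists, and counts of 0 to 3 in short lists carry little weight against 3.11%.

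Sequence could be read where a kainic acid summit lay in a RefSeq promoter window, 250 bases before to 50 after a gene start on GRCm38.p6. This held for 126 shared regions, 104 of them gene-end regions, and for 1041 kainic acid only regions. For 556 saline only regions the saline summit lay in a window. The AP-1 motif TGANTCA was found in 29 of the 126 shared windows, 23.0% (16.0 to 31.4), in 29.9% (27.1 to 32.8) of kainic acid only windows and in 1.08% (0.397 to 2.33) of saline only windows. Over all 31396 autosomal windows the share was 7.84%. This and every other motif was searched on both strands. Among the shared windows it went with the number of kainic acid lists, at 8.00% (2.99 to 16.6) of the 75 windows in 1 list and 45.1% (31.1 to 59.7) of the 51 in 2 or 3 lists. Kainic acid only windows had 17.5% (14.7 to 20.5) and 55.3% (49.8 to 60.6) in the same order. For gene-end shared regions alone it was 10.2% and 40%.

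The choice of window moved this share. With the saline summit in the window in place of the kainic acid summit, 27 of 229 shared windows, 11.8% (7.92 to 16.7), held the AP-1 motif, which compares with 1.08% for saline only windows placed by the same kind of summit. Taking every window that shared at least 1 bp with a region gave 10.6% (8.19 to 13.4) for shared, 16.5% (15.2 to 17.9) for kainic acid only and 1.19% (0.615 to 2.07) for saline only regions. Shared regions lay between the other classes with kainic acid summits and with every touching window, and the saline summit has no counterpart in kainic acid only regions. By the saline summit, shared windows had 4.51% in 1 kainic acid list and 21.9% in 2 or 3 lists. With every touching window they had 4.47% and 18.2% in the same order. Without kainic acid replicate 2 the share by the kainic acid summit was 45.8% of 48 windows.

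GC boxes divided the classes another way. GGGCGG was found in 81.7% (73.9 to 88.1) of shared windows, in 87.6% (84.6 to 90.2) of saline only windows and in 43.8% (40.8 to 46.9) of kainic acid only windows, against 36% of all windows. Shared windows had a median GC content of 67.8% and a median CpG ratio (observed over expected) of 0.846. Saline only windows had 68.5% and 0.856, kainic acid only windows 56.7% and 0.618, and all windows 53.0% and 0.389. Base composition alone moves motif counts. Among all 5940 windows with a GC content in the quartile range of the shared windows, 3.67% held the AP-1 motif and 80% the GC box. The GC box share of shared windows was thus close to that of windows of like composition, while their pooled AP-1 share was above it. In the 75 windows in 1 kainic acid list the AP-1 share of 8.00% had an interval (2.99 to 16.6) that holds 3.67%. The 51 in 2 or 3 lists had 45.1% (31.1 to 59.7). The cyclic AMP response element TGACGTCA, bound by CREB, was in 6 of the 126 shared windows (4.76%, 1.77 to 10.1), against 1.83% of all windows, and 1 window held both it and the AP-1 motif. Of the 29 windows with an AP-1 match, 24 also held a GC box. CCAAT was in 23.8% of shared windows and 40.6% of saline only windows, against 37.3% of all windows. The E-box CACGTG was in 8.73%, the ETS motif CCGGAAGT in 2.38% and the NRF1 motif in 0.794% of shared windows, against 7.14%, 3.95% and 0.968% of all windows. The CArG box of the serum response factor was in 0 of 126 (upper limit 2.89%), against 1.57% of all windows. A match describes these letters and is not evidence of binding at them.

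**Figure D5:**
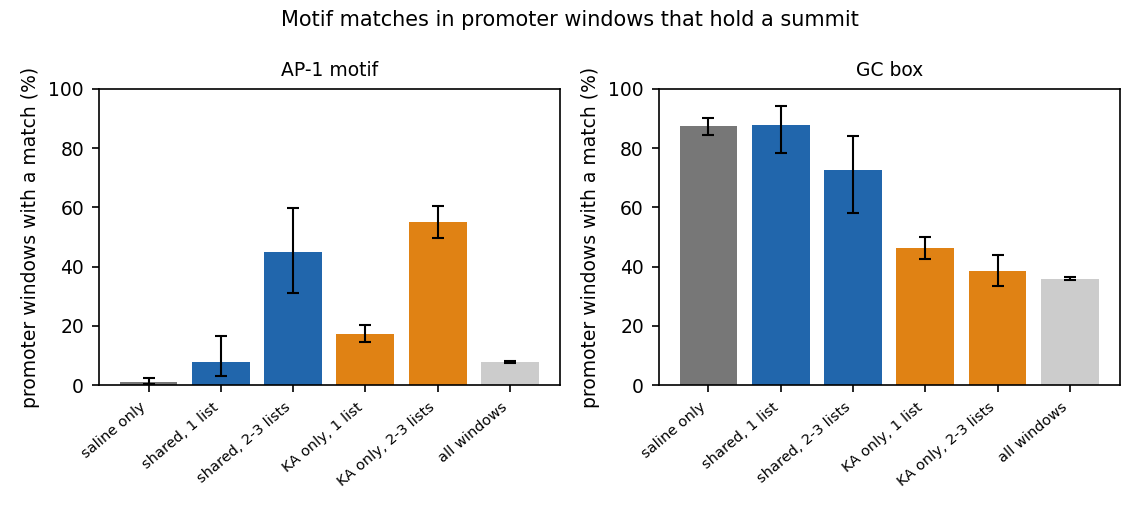
Percentage of RefSeq promoter windows with a match to the AP-1 motif TGANTCA or the GC box GGGCGG, for windows that hold a summit of each class of region and for all 31396 autosomal windows (KA, kainic acid). Bars carry 95% Clopper-Pearson intervals, and classes are split by the number of kainic acid lists. AP-1 matches are at 8.00% and 45.1% of shared windows, and GC boxes at 88.0% and 72.5%.

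In the 29 shared windows with an AP-1 match, the summits were compared with the match. The median distance from the match to the summit was 42.5, 35.0 and 59.0 bp in the kainic acid lists in order (18, 29 and 23 peaks) and 84.0 bp in saline replicate 2 (29 peaks). The summit lay within 50 bp of the match in 10 of 18, 19 of 29 and 9 of 23 windows in the kainic acid lists (55.6%, 65.5% and 39.1%) and in 12 of 29 (41.4%) in saline replicate 2, which is above the third kainic acid list. In kainic acid only windows the medians were 53.0, 45.0 and 59.0 bp. The windows were chosen to hold a kainic acid summit, which keeps those distances short, so the values are a description.

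The rule's thresholds had close neighbours on both sides. The smallest overlaps of saline and kainic acid peaks among the shared regions were 1, 1 and 2 bp, and the nearest saline only regions lay 0, 0 and 2 bp from a kainic acid peak, where 0 means touching without a shared base. The median of the largest overlap was 217 bp, and 79 regions (7.51%) overlapped by less than 50 bp. Of the saline only regions, 507 (23.3%) lay within 500 bp of a kainic acid peak. At the 1 kb limit the farthest gene-end summits were at 993, 993 and 1000 bp and the nearest others at 1001, 1018 and 1024 bp.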

How the data were processed

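Fos ChIP-seq peak lists of 3 saline and 3 kainic acid libraries were used, 1 list per library, none pooled. The submitters' processing notes name Trim Galore 0.6.4, Bowtie2 2.3.4.3, MACS2, deepTools 3.5.0 and the build mm10, and names in the lists hold a mapping quality of 30. The caller's cutoff and control are not given in the sources used here. Each deposited list gives the authors' fold (a linear ratio to local background), −log10 p and −log10 q, and a score of 10 times −log10 q. None is scaled between libraries.

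Peaks sharing at least 1 bp were merged in Python 3.11.15 (numpy 2.4.6, pandas 2.3.3, scipy 1.17.1). A region's summit is that of its kainic acid peak of best rank of fold. Gene spans and promoter windows came from RefSeq tables of GRCm38.p6, the same assembly as mm10. Gene ends are the edges of each span, which includes predicted transcripts and can lie away from the promoter table's start. The promoter table gave a strand for 16456 of 20661 genes. Merging, annotation and motif search were tested on simulated data and returned what had been put in. Intervals are 95% Clopper-Pearson.

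The regions, gene lists and tests were chosen with earlier results of these data known. Named were all regions with a peak in saline replicate 1 or 3, the 10 gene-end and 10 other regions of best mean kainic acid rank among those in all 3 kainic acid lists, the 5 of each part with the highest saline replicate 2 fold, and listed genes with a shared summit at an end. The rule set a limit of 30 names, which the listed genes passed. Alternatives tried were other reaches, gene sets, overlap rules, q thresholds and single libraries left out. The planned windows around summits were not run, since no genome sequence was used here. Motif alternatives, starts from the promoter table and the use of saline summits were chosen after seeing the data. Results for some genes are not reported here.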

Additional observations from a re-analysis of the deposited data

Results flagged for a closer look

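Outside chromosomes 1 to 19, which the comparisons did not use, 10 merged regions were also called in both groups. Of these, 4 were on X, 3 on the mitochondrial genome, 2 on Y and 1 on an unlocalised contig of chromosome 4. The Y region from 258963 to 259415 was the only one with a peak in all 6 lists. Its fold was 10.6, 6.47 and 11.0 in saline replicates 1, 2 and 3 and 6.24, 4.86 and 4.77 in kainic acid replicates 1, 2 and 3, so every saline fold was above every kainic acid fold. The second Y region, from 11858073 to 11858310, had 8.88, 6.47 and 9.38 with saline and 4.80 in kainic acid replicate 1 alone. The 3 mitochondrial regions had folds of 1.55, 1.55 and 1.57 in saline replicate 2 and 1.21, 1.31 and 1.32 in kainic acid replicate 1.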

How the results depend on the processing

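Of 64 alternative values, 46 stayed within their set limit or kept their direction and 18 moved. The number of shared regions was 694 with summits within 200 bp, 270 with −log10 q of at least 5, 495 with −log10 q of at least 10 in the kainic acid lists and 537 with at least 2 kainic acid lists. Leaving out 1 library gave 4 to 1052 regions, the lowest without saline replicate 2. The gene-end share was 39.7% within 500 bp, 65.8% within 2.5 kb, 59.3% with all annotated genes, 46.7% with the kainic acid −log10 q limit and 44.3% with at least 2 kainic acid lists. With 1 library left out it ran from 0% (4 regions, without saline replicate 2) to 55.3%, and was 41.3% without kainic acid replicate 2. It was 55.7% by the saline summit. The median summit distance away from gene ends was 118 bp with −log10 q of at least 5, against 154 bp. The AP-1 share was 11.8% by the saline summit, 10.6% for all windows touched and 22.8% to 45.8% with 1 library left out. Without saline replicate 2 no region lay in a window. Saline replicate 2 summits within 100 bp of the start were 35.3% by the promoter table's start, against 29.7%. The cause of these moves was not tested. The difference in gene-end share between shared and other kainic acid peaks stayed between 25.5 and 44.1 points. That in median rank stayed between 13.1 and 28.0 points, but their p-values could not pass 0.05 at this size. The sharing rule itself favoured the direction of the gene-end difference, and the same saline peaks split every kainic acid list. Its steady sign is therefore a description. Paired by number, with the replicate block, the difference in log10 peak numbers was 3.08 (exact sign-flip permutation p = 0.25, the smallest possible), the same value as without it. The labels do not say that numbers mark a shared day or litter, and the within-list results have no pairing. With 1 library left out this difference ran from 2.37 to 4.13.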
